A study of Mus musculus with 24 samples.

Results

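Mouse olfactory receptor genes lie in clusters on many chromosomes, and chromosome 11 carries several of them. The receptors described here are the genes whose GENCODE M21 symbol runs from Olfr1377 to Olfr1396, from Olfr311 to Olfr331 or from Olfr376 to Olfr412 by number, without pseudogene names. The rule used names and no measured value, and it found 59 genes of the 57010 in the count tables: 19 in the Olfr1377 to Olfr1396 range, 17 in the Olfr311 to Olfr331 range and 23 in the Olfr376 to Olfr412 range. In GENCODE M21 all 59 are protein coding and on chromosome 11. The tables hold 1107 olfactory receptor genes under Olfr names without a pseudogene mark, so 1048 are other receptors, 22 of them on chromosome 11 outside the 3 ranges.

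RNA came from the olfactory epithelium of wild-type male C57BL/6J mice aged 8 weeks, after 4 h of habituation and 90 min beside a filter paper. In the AD batch the paper held 10 µL of undiluted acetophenone (an aromatic ketone), of undiluted decanal (a straight-chain aldehyde), of a 1:1 mixture of both (the AD mixture) or nothing (the AD control). In the OC batch it held octanal, an aldehyde with fewer carbons than decanal, cis-3-hexenol, a leaf alcohol with a double bond, a 1:1 mixture of both (the OC mixture) or nothing (the OC control). Each of the 8 groups has 3 biological replicates, and each odorant was compared with the control of its own batch to ask which receptor transcripts differed after exposure.

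Each mature olfactory sensory neuron expresses a single receptor gene, chosen from the whole repertoire, and usually from a single allele. Enhancers inside the receptor clusters, bound by Lhx2, Ebf and Ldb1, are known to take part in that choice. The receptor protein sits in the membrane of the cilia, where an odorant makes it activate the G protein encoded by Gnal and, through it, the cyclase encoded by Adcy3. In tissue RNA, fewer neurons that chose a receptor and less receptor RNA per neuron cannot be told apart.

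The coding sequences show which of these genes share sequence, which bears on how far their counts are separate. In GENCODE M21 they are 921 to 1002 bases long, with a median of 939, and 55 of 59 have their nearest receptor, by coding identity, on chromosome 11, for 39 another of the 59. Family numbers in RefSeq synonyms, given for 58 of 59, put 13 of the 19 genes of the Olfr1377 to Olfr1396 range in family MOR256 and 14 of the 23 of the Olfr376 to Olfr412 range in family MOR135. The Olfr311 to Olfr331 range is mixed, with 4 genes in MOR275, 4 in MOR285 and 3 in MOR222 as its largest families.

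Near-identical copies occur in every number range, so some counts in each are uncertain. Olfr318 was 96.2% identical to Olfr320 in coding sequence, and Olfr403 was 98.7% identical to Olfr43. Coding sequences of Olfr1380 and Olfr1381 were 98.0% identical, those of Olfr1381 and Olfr1382 96.8% and those of Olfr1380 and Olfr1382 95.9%, while Olfr1381 was 98.6% identical to Olfr1373, which lies outside the ranges. Coding bases 844 to 933 of this trio are shown because they are the 90 bases in which the 3 genes differ most, in 10 of the 43 positions that vary over 936. Capitals mark bases that neither of the other two carries.
Olfr1380: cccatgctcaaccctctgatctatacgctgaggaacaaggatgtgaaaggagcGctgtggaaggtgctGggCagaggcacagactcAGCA
Olfr1381: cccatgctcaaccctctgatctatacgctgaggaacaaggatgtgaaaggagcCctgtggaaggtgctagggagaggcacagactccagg
Olfr1382: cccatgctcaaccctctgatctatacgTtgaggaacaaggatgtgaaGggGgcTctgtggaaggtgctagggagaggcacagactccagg
Coding identity to the nearest receptor was over 90% for 33 of the 59. The deposited counts were not whole in at least 1 library for 30 receptors, whose median identity to the nearest receptor was 94.6%, and whole in every library for 29, with a median of 86.4%. Olfr1395 stands apart, being 68.5% identical to its nearest receptor, Olfr56, as does Olfr315, 67.6% identical to Olfr314, and Olfr1384 had 86.4% identity to Olfr1383. Olfr1396 and Olfr56 overlap on opposite strands. The library kit keeps strand, but whether the counting used it is not given in the sources used here, so their reads may not be told apart.

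AD libraries held 20604861 to 24802512 counts and OC libraries 19003768 to 24531349. All olfactory receptors together took 0.317% to 0.574% of a library, and the 59 receptors took 0.0200% to 0.0359%. Receptors as a whole were 0.501% ± 0.0173 of the library with octanal, 0.493% ± 0.0251 with cis-3-hexenol and 0.535% ± 0.0339 with the OC mixture, against 0.371% ± 0.0510 in the OC controls (SD, n = 3). In the AD batch they were 0.500% ± 0.0110 with acetophenone, 0.468% ± 0.0354 with decanal and 0.460% ± 0.0506 with the AD mixture, against 0.515% ± 0.0169 in the AD controls. Of all receptor counts the 59 took 5.81% to 7.26%, with a median of 6.23% over the 24 libraries. Markers of mature sensory neurons, such as Omp and Cnga2, were detected in every group, with a summed level of 16131 to 22103 CPM, the count scaled to the size of its library, over 8 genes.

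**Figure D1:**
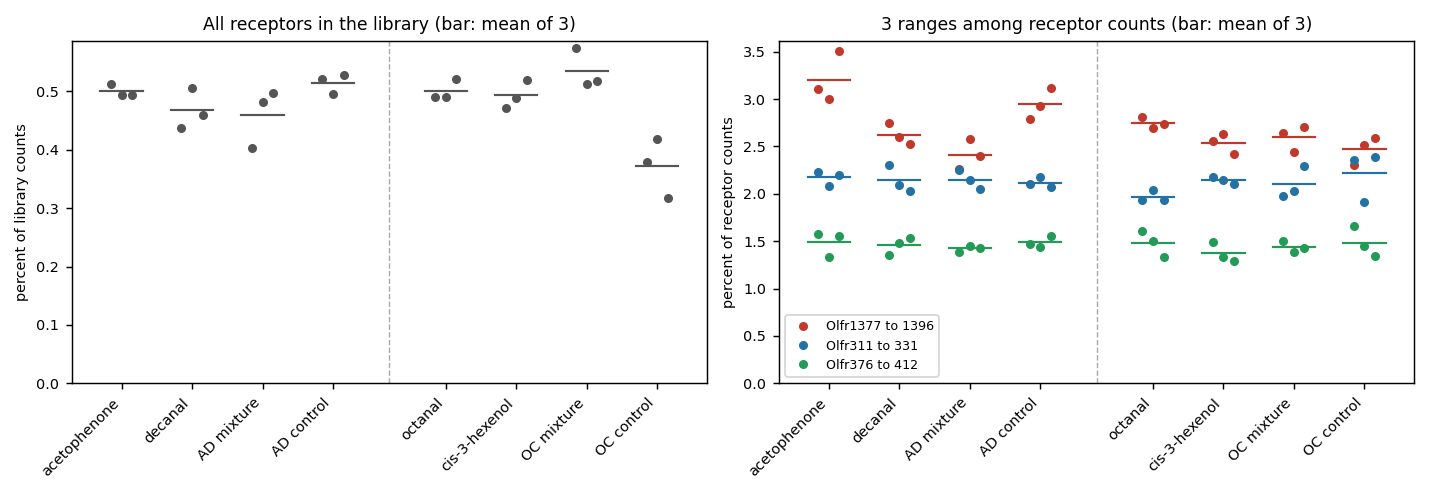
Left, all receptor counts as a percent of the library, and right, the counts of the 3 number ranges as a percent of all receptor counts, with 1 point per library and a bar at the mean of 3. All receptors stand at 0.317% to 0.574% of a library, lowest in the OC controls, and the Olfr1377 to Olfr1396 range at 2.26% to 3.50% of receptor counts.

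Levels of the 59 receptors, as CPM per kb of the longest transcript averaged over the 24 libraries, had a median of 0.774 and ran from 0.00206 to 9.53. For the 1048 other receptors the median was 0.602 and the highest value 56.7. At least 1 CPM per kb was reached by 24 of the 59, and at least 0.1 by 50. The highest were Olfr328, at 9.53 CPM per kb, Olfr330, at 7.98, and Olfr1395, at 7.75, which ranked 19, 26 and 29 among all receptors. In the Olfr1377 to Olfr1396 range Olfr1395 was followed by Olfr1384, at 4.65 CPM per kb. The Olfr376 to Olfr412 range was led by Olfr390, at 3.36, and Olfr392, at 2.56. The CPM values were scaled within each table, so these averages over both batches carry that difference.

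No receptor was at 0 in all 24 libraries. The lowest, Olfr331, had 1 count in 1 library, and Olfr384 had 8 counts in all, spread over 6 libraries. The filter on low counts left 50 of the 59 to test among AD libraries and 49 among OC libraries. Those tested in neither were Olfr331, Olfr323, Olfr320, Olfr382, Olfr385, Olfr384, Olfr395, Olfr401 and Olfr402, with at most 15 counts in any library, and Olfr1390 was tested in the AD batch only.

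**Figure D2:**
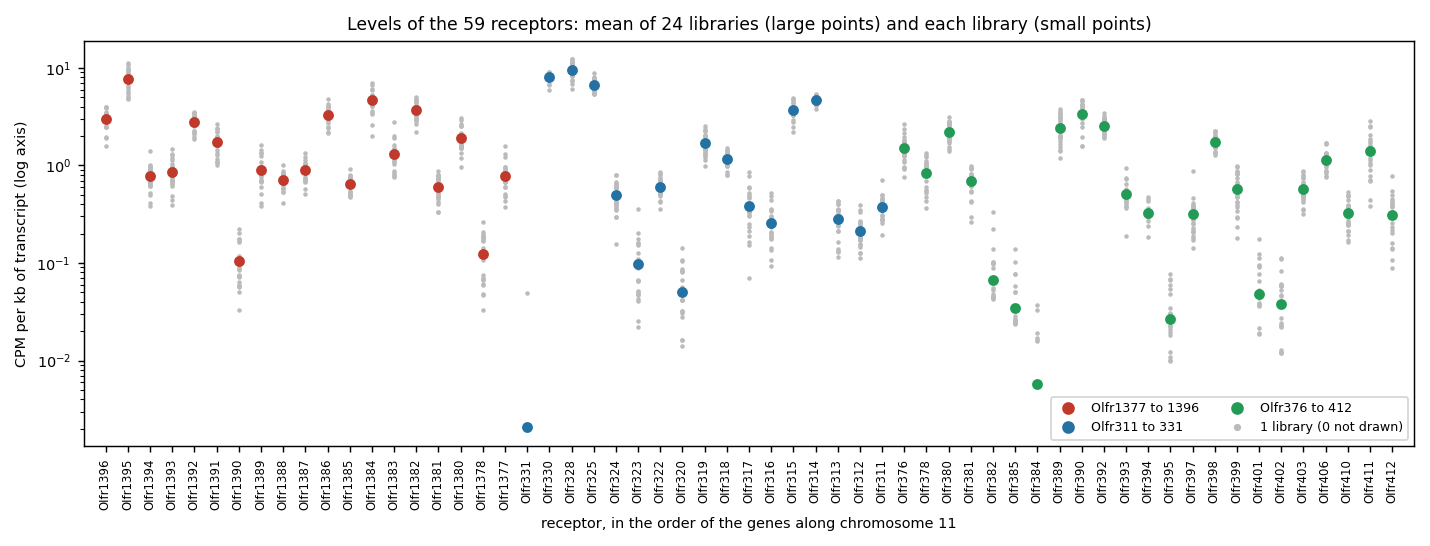
Level of each of the 59 receptors in CPM per kb of transcript on a log axis, in the order of the genes along chromosome 11, with the mean of 24 libraries as a large point and single libraries as small points. Means run from 0.00206 for Olfr331 to 9.53 for Olfr328.

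Across the 6 comparisons the called receptors were mostly lower with decanal and the AD mixture and higher with octanal, cis-3-hexenol and the OC mixture. A receptor was called at an adjusted p under 0.05, from the quasi-likelihood test of edgeR over all genes of the batch. With acetophenone 0 of 50 were called, while 5 had an unadjusted p under 0.05, against 1287 of all 19525 genes. DESeq2 made 0 calls among them, and edgeR with no filter on low counts made 2. Here and below, shares of all genes called are those of the edgeR fit with its filter. Counts under other fits have no such share beside them. Of all 19525 genes, 0.00512% were called higher and 0.0% lower. The median log2 fold change of the 50 receptors was -0.00, against -0.12 for 878 other receptors and 0.01 for all genes tested. Groups did not overlap for 5 of the 50 on the higher side and 3 on the lower, against 8.2% and 6.34% of all genes.

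With decanal 1 of 50 was called higher and 4 lower, against 11.4% of all genes higher and 12.5% lower, so both shares were below the background. Their median log2 fold change was -0.15, against -0.01 for other receptors, of which 0.911% were called higher and 3.3% lower. Groups did not overlap for 2 of the 50 on the higher side and 9 on the lower, against 20.7% and 20.1% of all genes. The count of 5 calls dropped to 2 without AD control 3, and to 3 without AD control 1, decanal 2 or decanal 3 or with length and GC offsets.

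With the AD mixture 1 of 50 was called higher and 5 lower, against 10.6% of all genes higher and 11.6% lower. The median log2 fold change of the 50 was -0.22, against -0.09 for other receptors, of which 0.342% were called higher and 4.21% lower. Groups did not overlap for 1 on the higher side and 11 on the lower, against 18.6% and 18.0% of all genes. Of the 50, 43 had a negative log2 fold change. The count of 6 became 2 without AD mixture 1 and 3 without AD control 2. The 3 comparisons of the AD batch share the same 3 controls.

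With octanal 11 of 49 were called higher and 0 lower, against 14.4% of all 19175 genes higher and 15.0% lower. Of 875 other receptors, 16.7% were called higher, and their median log2 fold change was 0.35, against 0.26 for the 49. With length and GC offsets these medians were 0.22 and 0.16. Libraries of both groups did not overlap for 12 of the 49 on the higher side and 0 on the lower, against 19.7% and 20.6% of all genes. The count of 11 became 7 without OC control 3 or with length and GC offsets. DESeq2 called 11 higher and 0 lower. At an unadjusted p under 0.05, 14 of the 49 were higher and 0 lower. Of all 19175 genes, 7643 passed in either direction, so the share of the 49 was below the background.

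With cis-3-hexenol 5 of 49 were called higher and 0 lower, against 5.56% of all genes higher and 6.65% lower. At an unadjusted p under 0.05, 16 were higher and 0 lower, against 5353 of all 19175 genes in either direction. DESeq2 called 5 higher and 0 lower. Libraries of both groups did not overlap for 16 on the higher side and 0 on the lower, against 15.1% and 15.5% of all genes. Other receptors had 9.37% called higher and a median log2 fold change of 0.44, against 0.31 for the 49, and with length and GC offsets these medians were 0.25 and 0.16. The count of 5 became 3 without cis-3-hexenol 3, 9 without OC control 2 and 10 with no filter on low counts.

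With the OC mixture 14 of 49 were called higher and 0 lower, against 11.5% of all genes higher and 12.7% lower. At an unadjusted p under 0.05, 20 were higher and 0 lower, against 6983 of all 19175 genes in either direction. Groups were apart for 19 on the higher side and 1 on the lower, against 16.6% and 17.9% of all genes. The share among other receptors was 27.3%, with a median log2 fold change of 0.54, against 0.48 for the 49. DESeq2 called 18 higher and 0 lower. With length and GC offsets 5 were called, and the medians were 0.33 for the 49 and 0.33 for other receptors. The 3 comparisons of this batch use the same 3 OC controls. In all, 19 receptors were called at least once and 40 never, and these 40 include the 9 tested in neither batch.

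**Figure D3:**
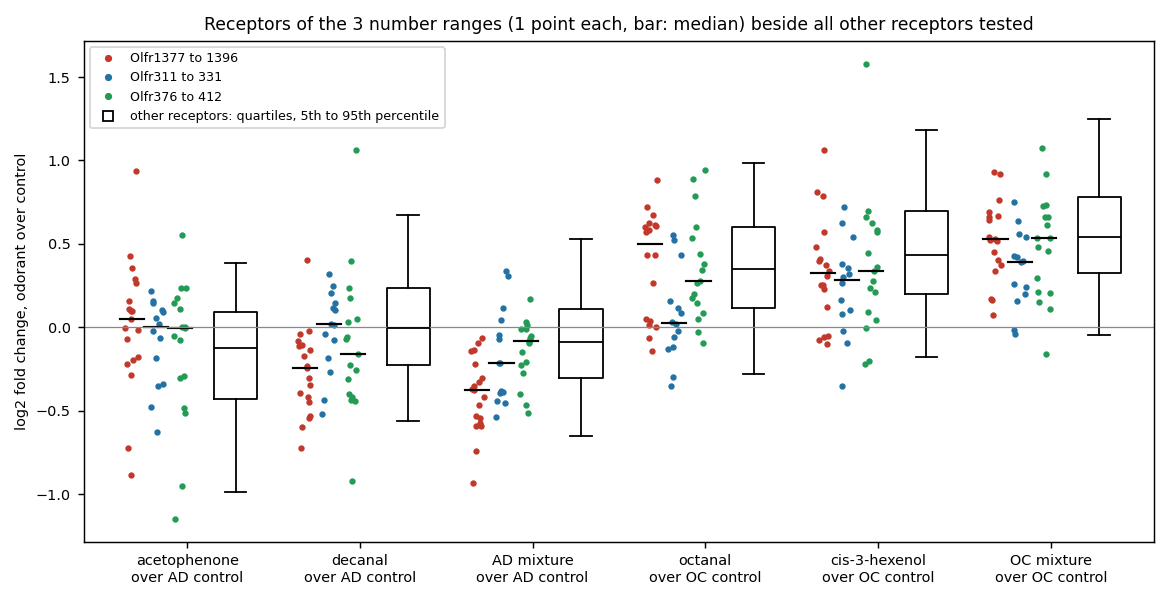
Log2 fold change of odorant over control for the receptors tested, coloured by number range, with a box for all other receptors (quartiles, whiskers at the 5th and 95th percentiles). Bars mark the median of each range, from -0.38 to 0.53. Over all tested receptors of the 3 ranges the medians run from -0.22 with the AD mixture to 0.48 with the OC mixture. Those of the other receptors run from -0.12 to 0.54.

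Several marker lists differed in the same comparisons. Of all genes 11.4% rose and 12.5% fell with decanal, and 10.6% rose and 11.6% fell with the AD mixture. In the OC batch 14.4% rose and 15.0% fell with octanal, and 5.56% and 6.65% with cis-3-hexenol. With the OC mixture 11.5% rose and 12.7% fell. Of 10 blood and marrow genes, such as Hbb-bs and S100a8, 10 rose with decanal and 10 with the AD mixture, with summed levels of 2099 to 2487 and 1818 to 2467 CPM against 484 to 629 in the AD controls. In the OC batch 10 fell with octanal, 3 with cis-3-hexenol and 8 with the OC mixture, at 720 to 1084, 1275 to 1851 and 833 to 1756 CPM against 2074 to 4254 in the OC controls. Of 5 transcripts encoded in mitochondrial DNA, all 5 rose with decanal and with the AD mixture, at 4023 to 4330 and 3934 to 4683 CPM in sum against 1241 to 1511 in the AD controls. With octanal 5 fell and with the OC mixture 1, at 2100.1 to 2466 and 2469 to 4373 CPM against 3500 to 4941 in the OC controls. Of 5 bone genes, such as Bglap and Col1a1, 3 rose with decanal and 5 with the AD mixture, while 4 fell with octanal, 3 with cis-3-hexenol and 4 with the OC mixture. Their summed levels were 1607 to 2240 CPM with decanal and 1851 to 2965 with the AD mixture against 1144 to 1348 in the AD controls, and 973 to 1131 with octanal, 1325 to 1655 with cis-3-hexenol and 1017 to 1174 with the OC mixture against 1920 to 3056 in the OC controls. Of the 8 genes of mature neurons 1 rose and 4 fell with decanal, 1 rose and 5 fell with the AD mixture, 3 rose and 2 fell with octanal, and 4 rose and 1 fell with each of the other OC exposures. Their summed level did not follow those counts, at 17993 to 19208 CPM with octanal, 19428 to 20199 with cis-3-hexenol and 19862 to 20378 with the OC mixture against 19550 to 22103 in the OC controls. In the AD batch it was 18243 to 20077 CPM with decanal and 16131 to 20228 with the AD mixture against 18498 to 19804 in the AD controls.

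Markers of other cells of the nose were also called with some exposures, in short lists. The shares of all genes just given apply to them as well. Such counts as 1 of 7 with decanal, against 11.4% of all genes, are near the background. Of 7 genes of immature sensory neurons 1 rose with decanal and 4 with the AD mixture. In the OC batch 2 of them fell with octanal, 1 with cis-3-hexenol and 1 with the OC mixture. Of 3 genes of horizontal basal cells 1 fell with cis-3-hexenol and 2 with the OC mixture. Of 6 genes of globose basal cells 1 rose with decanal and 1 with the AD mixture, and 1 fell with octanal and 1 with the OC mixture. Of 2 genes of the ventral epithelium 1 rose and 1 fell with octanal and with the OC mixture, and 1 fell with cis-3-hexenol. Of 2 vomeronasal genes tested 1 rose with octanal and 1 with the OC mixture. Of 7 genes of sustentacular cells, the supporting cells of the epithelium, 3 rose and 1 fell with octanal, 1 rose and 1 fell with cis-3-hexenol and 3 rose and 1 fell with the OC mixture. Their summed levels were 11097 to 12325, 10818 to 11212 and 11677 to 11779 CPM against 8305 to 10539 in the OC controls, with no overlap. In the AD batch 2 of the 7 sustentacular genes rose and 3 fell with decanal, and 2 rose and 3 fell with the AD mixture. Of 5 genes of the respiratory epithelium 3 rose and 2 fell with decanal and 2 rose and 2 fell with the AD mixture, at 5744 to 6062 and 5449 to 5914 CPM in sum against 6454 to 6510 in the AD controls. With octanal 1 of them rose and 3 fell, at 6584 to 6888 CPM against 4786 to 6282 in the OC controls. With cis-3-hexenol 1 of the respiratory genes fell, and with the OC mixture 1 rose and 2 fell. Of 5 genes of ensheathing glia 3 fell with octanal, 1 with cis-3-hexenol and 1 with the OC mixture, at 240 to 265, 286 to 312 and 272 to 281 CPM against 311.4 to 373 in the OC controls. With the AD mixture 2 of these glia genes fell, at 254 to 298 CPM in sum against 282 to 306 in the AD controls. With acetophenone 0 genes of any of these marker lists were called. Their part in the receptor results was not tested.

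In the Olfr1377 to Olfr1396 range, the receptors called were lower with decanal (2 of 19) and the AD mixture (4 of 19) and higher with octanal (7 of 18), cis-3-hexenol (3 of 18) and the OC mixture (8 of 18). The shares of all genes called in the same direction were 12.5% with decanal, 11.6% with the AD mixture, 14.4% with octanal, 5.56% with cis-3-hexenol and 11.5% with the OC mixture, so the decanal count was below the background. The median log2 fold changes were 0.05 with acetophenone, -0.24 with decanal, -0.38 with the AD mixture, 0.50 with octanal, 0.32 with cis-3-hexenol and 0.53 with the OC mixture. Other receptors had medians of -0.12 with acetophenone, -0.01 with decanal and -0.09 with the AD mixture. In the OC batch these were 0.35 with octanal, 0.44 with cis-3-hexenol and 0.54 with the OC mixture, where their 5th percentile was -0.04. Of other receptors, 3.3% were called lower with decanal and 4.21% with the AD mixture. Called higher were 16.7% with octanal, 9.37% with cis-3-hexenol and 27.3% with the OC mixture. In the Olfr1377 to Olfr1396 range all 19 were negative with the AD mixture and all 18 positive with the OC mixture. As a share of receptor counts, which takes the level of all receptors as its base, this range held 3.20% ± 0.267 with acetophenone, 2.63% ± 0.112 with decanal and 2.41% ± 0.158 with the AD mixture, against 2.95% ± 0.166 in the AD controls (SD, n = 3). It held 2.74% ± 0.0601 with octanal, 2.54% ± 0.106 with cis-3-hexenol and 2.60% ± 0.141 with the OC mixture, against 2.47% ± 0.147 in the OC controls. The other ranges were closer together, at 1.97% to 2.22% for Olfr311 to Olfr331 and 1.37% to 1.49% for Olfr376 to Olfr412 as group means.

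Olfr1395 (ENSMUSG00000050763) was called in every comparison but that of acetophenone. It had 18.7, 24.3 and 23.3 CPM with decanal and 15.2, 17.4 and 21.3 CPM with the AD mixture, against 27.0, 29.5 and 33.6 CPM in the AD controls. Both sets lay wholly below the controls. The log2 fold change was -0.44 with decanal (SE 0.12, adjusted p = 0.0146) and -0.74 with the AD mixture (SE 0.12, adjusted p = 0.000544) in edgeR. With acetophenone it had 28.5, 28.5 and 32.2 CPM, within the range of the AD controls. The decanal call ended without decanal 1 (adjusted p = 0.0589) or AD control 3 (adjusted p = 0.0758), while that of the AD mixture was kept without any 1 library.

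In the OC batch Olfr1395 had 24.7, 19.5 and 26.0 CPM with octanal, 22.5, 22.1 and 23.2 CPM with cis-3-hexenol and 24.6, 23.8 and 24.02 CPM with the OC mixture, against 16.5, 14.8 and 14.3 CPM in the OC controls. In CPM every exposed library stood above every control. The log2 fold changes were 0.62 with octanal (SE 0.10, adjusted p = 0.000471), 0.57 with cis-3-hexenol (SE 0.10, adjusted p = 0.00490) and 0.67 with the OC mixture (SE 0.10, adjusted p = 0.000427), and the calls held without any 1 library. Of all receptor counts Olfr1395 made up 0.470% ± 0.0388 with decanal and 0.389% ± 0.0301 with the AD mixture, against 0.590% ± 0.0550 in the AD controls (SD, n = 3), and 0.472% ± 0.0580 with octanal, 0.463% ± 0.0154 with cis-3-hexenol and 0.451% ± 0.0193 with the OC mixture, against 0.404% ± 0.0496 in the OC controls. As a share of receptor counts each exposed OC group overlapped the OC controls, which reached 0.452%. The lowest values were 0.405% with octanal, 0.451% with cis-3-hexenol and 0.429% with the OC mixture. On that base the decanal and AD mixture libraries stayed below all AD controls. The AD controls averaged 30.04 CPM and the OC controls 15.2 CPM, in tables that were scaled separately, and this difference was not tested.

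Olfr1384 (ENSMUSG00000044170) differed with all OC exposures. It had 20.5, 23.7 and 20.7 CPM with octanal, 20.2, 23.4 and 17.9 CPM with cis-3-hexenol and 26.1, 18.2 and 22.5 CPM with the OC mixture, against 8.93, 14.8 and 11.5 CPM in the OC controls. In CPM no exposed library fell into the range of the controls. The log2 fold changes, the largest of the Olfr1377 to Olfr1396 range among those called, were 0.89 (SE 0.16, adjusted p = 0.00117), 0.81 (SE 0.17, adjusted p = 0.00788) and 0.93 (SE 0.16, adjusted p = 0.00114), all kept without any 1 library. As a share of receptor counts Olfr1384 stood at 0.438% ± 0.0487, 0.422% ± 0.0689 and 0.413% ± 0.0568, against 0.309% ± 0.0569 in the OC controls. On that base the octanal libraries stayed above the controls, which reached 0.354%. The other exposed groups overlapped them, from 0.349% with cis-3-hexenol and 0.348% with the OC mixture.

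In the AD batch Olfr1384 had the smallest p of the 50 receptors with acetophenone, without being called. It had 26.9, 29.6 and 30.8 CPM with acetophenone, against 21.4, 21.3 and 22.1 CPM in the AD controls, groups that did not overlap. The log2 fold change was 0.43 (SE 0.12, adjusted p = 0.451 in edgeR). With no filter on low counts its adjusted p was 0.000971, and in DESeq2 it was 0.145.

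Olfr1380 (ENSMUSG00000107645) and Olfr1382 (ENSMUSG00000063827) belong to the near-identical trio, so their counts rest on how reads were split. Olfr1380 had 3.76, 4.50 and 4.03 CPM with decanal and 4.21, 5.30 and 3.99 CPM with the AD mixture, against 5.40, 7.34 and 7.59 CPM in the AD controls. Both sets were below the controls, with log2 fold changes of -0.72 (SE 0.16, adjusted p = 0.00436) and -0.59 (SE 0.16, adjusted p = 0.0154). The second call ended without AD mixture 1 (adjusted p = 0.0513), AD mixture 3 (adjusted p = 0.0545), AD control 2 (adjusted p = 0.0637) or AD control 3 (adjusted p = 0.0709).

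In the OC batch Olfr1380 had 5.07, 5.09 and 4.93 CPM with cis-3-hexenol, and with the OC mixture 4.72, 3.96 and 4.01 CPM, against 2.41, 3.38 and 2.98 CPM in the OC controls. Both groups stood above the controls, with log2 fold changes of 0.79 (SE 0.17, adjusted p = 0.00981) and 0.54 (SE 0.17, adjusted p = 0.0307), and the second call ended without OC mixture 1 (adjusted p = 0.115), OC control 1 (adjusted p = 0.105) or OC control 3 (adjusted p = 0.0504). It also ended with length and GC offsets (adjusted p = 0.0870), with no filter on low counts (adjusted p = 0.0849) and in the fit of the 6 libraries compared (adjusted p = 0.104). With octanal it stood at 3.77, 3.74 and 4.33 CPM, above the controls, with a log2 fold change of 0.44 that was not called (adjusted p = 0.0660). Of all receptor counts Olfr1380 made up 0.103% ± 0.00656 with cis-3-hexenol and 0.0787% ± 0.00319 with the OC mixture (SD, n = 3). Its share in the OC controls was 0.0773% ± 0.00977, near that with the OC mixture.

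Olfr1382 had 9.38, 16.4 and 12.8 CPM with the AD mixture, against 19.9, 18.8 and 17.4 CPM in the AD controls, a log2 difference of -0.54 with SE 0.15 (adjusted p = 0.0167). The call ended without AD mixture 1 (adjusted p = 0.0542) or AD control 1 (adjusted p = 0.0627). It had 19.8, 20.5 and 17.5 CPM with octanal and 15.9, 14.8 and 16.4 CPM with the OC mixture, against 11.4, 12.3 and 12.6 CPM in the OC controls. No exposed library of these groups overlapped its controls. On the log2 scale the differences were 0.67 (SE 0.09, adjusted p = 0.000214) with octanal, the smallest p of the 49 there, and 0.38 (SE 0.10, adjusted p = 0.00988) with the OC mixture. With length and GC offsets the OC mixture call of Olfr1382 ended (adjusted p = 0.0706) and the octanal call did not. Of all receptor counts Olfr1382 made up 0.391% ± 0.0484 with octanal and 0.293% ± 0.0224 with the OC mixture (SD, n = 3). The OC controls stood at 0.322% ± 0.0328, so on that base the OC mixture mean was lower than that of the controls.

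Olfr1389 was lower with the AD mixture, at 2.65, 1.54 and 1.43 CPM, against 3.51, 3.26 and 4.00 CPM in the AD controls. Its log2 fold change of -0.93 (SE 0.23, adjusted p = 0.00938) was the lowest among the calls and was kept without any 1 library, though it rests on 32 to 61 counts per exposed library. Olfr1396, Olfr1392, Olfr1387 and Olfr1386 were called higher with octanal and with the OC mixture. Counts of Olfr1392, 95.7% identical to Olfr1393, and of Olfr1386, 95.9% identical to Olfr1385, also rest on how reads were split. Olfr1396 had 12.5, 12.8 and 13.3 CPM with octanal and 16.3, 13.5 and 13.0 CPM with the OC mixture, against 6.77, 10.6 and 8.05 CPM in the OC controls, log2 fold changes of 0.61 (SE 0.14) and 0.76 (SE 0.14). The log2 fold changes of Olfr1392 were 0.60 and 0.53, those of Olfr1386 were 0.61 and 0.52 and those of Olfr1387 were 0.57 and 0.69, with octanal and the OC mixture in that order. With length and GC offsets Olfr1387 lost both calls (adjusted p = 0.0916 and 0.0527), and Olfr1392 and Olfr1386 lost that of the OC mixture (adjusted p = 0.0558 and 0.0868). Olfr1387 also lost its octanal call without octanal 2, octanal 3, OC control 2 or OC control 3 (adjusted p = 0.112, 0.0712, 0.0957 and 0.0552) and its OC mixture call without OC mixture 1 (adjusted p = 0.0761). Olfr1386 lost its OC mixture call without OC mixture 3 (adjusted p = 0.0873) or OC control 1 (adjusted p = 0.0833).

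**Figure D4:**
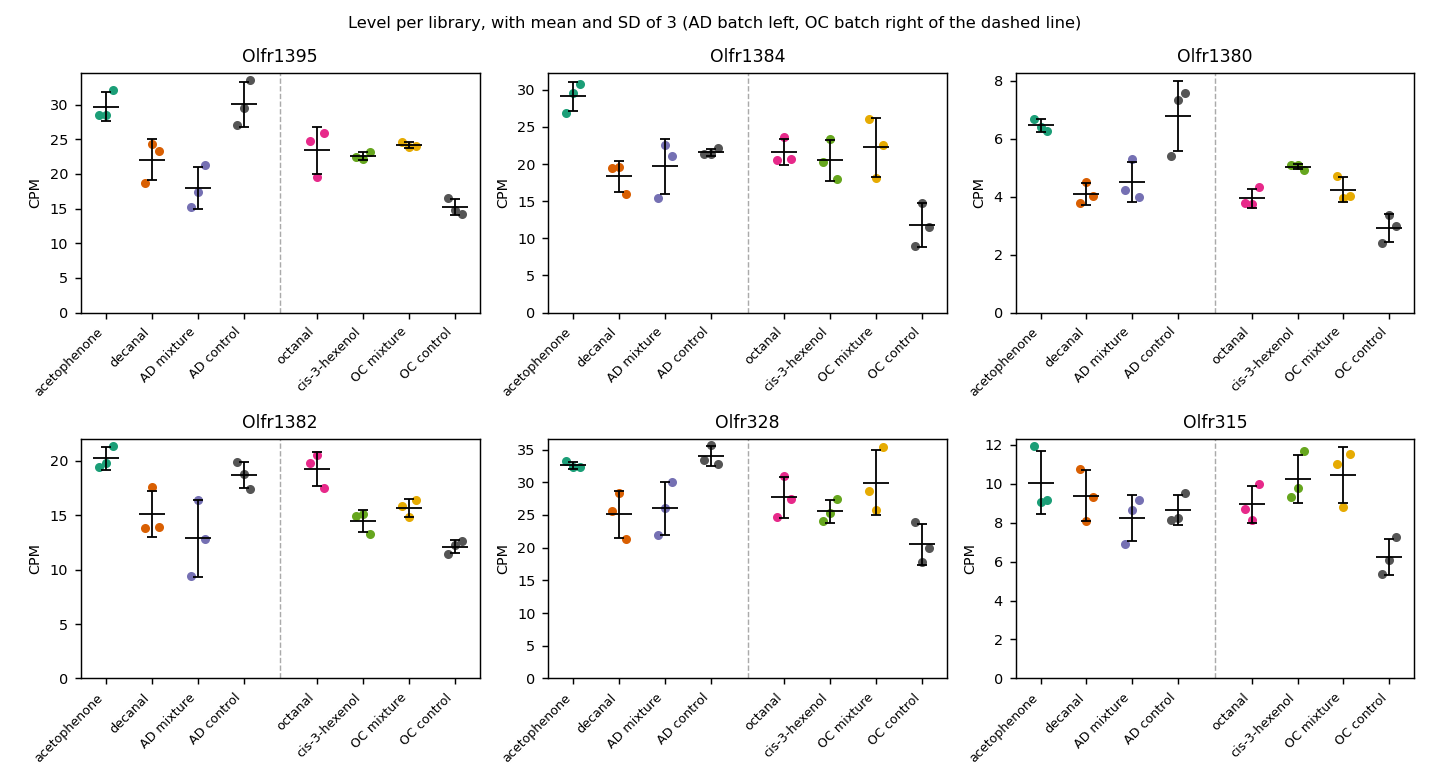
CPM per library of 6 receptors in the 8 groups, with mean and SD of 3 as a black bar and whiskers. Olfr1395 stands at 15.2 to 24.3 CPM with decanal and the AD mixture, against 27.0 to 33.6 CPM in the AD controls, and at 19.5 to 26.0 CPM in the exposed OC groups, against 14.3 to 16.5 CPM in the OC controls.

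The Olfr311 to Olfr331 range holds the most abundant of the 59, and here calls went in both directions with the AD exposures. Of 14 tested, 1 was higher and 2 lower with decanal and 1 higher and 1 lower with the AD mixture, against 11.4% and 12.5%, and 10.6% and 11.6%, of all genes. Higher calls in the OC batch were 2 with octanal, 2 with cis-3-hexenol and 3 with the OC mixture, against 14.4%, 5.56% and 11.5%. Olfr328 (ENSMUSG00000057654) had 25.6, 28.4 and 21.3 CPM with decanal and 21.9, 26.0 and 30.1 CPM with the AD mixture, against 33.4, 35.7 and 32.8 CPM in the AD controls. Every exposed library lay below the controls, with log2 fold changes of -0.44 (SE 0.11, adjusted p = 0.00792) and -0.39 (SE 0.11, adjusted p = 0.0169). The second call ended without AD mixture 1 (adjusted p = 0.0618) or AD control 2 (adjusted p = 0.0636).

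With octanal Olfr328 had 24.7, 31.0 and 27.4 CPM and with the OC mixture 28.7, 25.7 and 35.4 CPM, against 23.9, 17.7 and 19.9 CPM in the OC controls. Octanal 1 was the exposed library closest to the controls, and the log2 fold changes were 0.43 (SE 0.13, adjusted p = 0.0190) and 0.54 (SE 0.13, adjusted p = 0.00634). Both calls ended with length and GC offsets (adjusted p = 0.170 and 0.103), and the octanal call also without octanal 2, OC control 2 or OC control 3 (adjusted p = 0.0854, 0.0719 and 0.0523). As a share of receptor counts Olfr328 stood at 0.561% ± 0.0720 with octanal and 0.560% ± 0.109 with the OC mixture (SD, n = 3). Both means were near the 0.549% ± 0.116 of the OC controls. Olfr328 is 92.2% identical in coding sequence to Olfr224.

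Olfr315 (ENSMUSG00000056959) was called with all OC exposures. It had 8.70, 8.15 and 10.0 CPM with octanal, 9.31, 9.79 and 11.7 CPM with cis-3-hexenol and 11.03, 8.79 and 11.5 CPM with the OC mixture, against 5.38, 6.08 and 7.25 CPM in the OC controls, with no overlap. In edgeR the log2 fold changes were 0.52 (SE 0.15, adjusted p = 0.0157), 0.72 (SE 0.15, adjusted p = 0.00831) and 0.75 (SE 0.15, adjusted p = 0.00229). All 3 stayed called with length and GC offsets, but the octanal call ended without octanal 3 (adjusted p = 0.0692) or OC control 1 (adjusted p = 0.0604), and that of cis-3-hexenol without cis-3-hexenol 3 (adjusted p = 0.0567). In the AD batch Olfr315 was not called.

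Olfr330 had 21.8, 24.1 and 24.3 CPM with cis-3-hexenol and 25.5, 26.0 and 25.2 CPM with the OC mixture, against 18.8, 16.9 and 21.3 CPM in the OC controls. The log2 fold changes were 0.30 (SE 0.09, adjusted p = 0.0435) and 0.43 (SE 0.09, adjusted p = 0.00350), and both calls ended with length and GC offsets (adjusted p = 0.464 and 0.125). The cis-3-hexenol call of Olfr330 held without OC control 3 and ended without any other single library (adjusted p = 0.0566 to 0.158). Olfr330 is 94.6% identical to Olfr331, and its counts were not whole in 24 libraries, so they also rest on how reads were split. It overlaps the pseudogene Gm12255 on the same strand.

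Olfr325, 93.6% identical to Olfr331 and with counts not whole in 24 libraries, was the receptor called higher in the AD batch. It had 10.7, 13.3 and 11.3 CPM with decanal and 11.6, 12.8 and 11.2 CPM with the AD mixture, against 9.41, 9.87 and 8.96 CPM in the AD controls, log2 fold changes of 0.32 (SE 0.11, adjusted p = 0.0392) and 0.33 (SE 0.11, adjusted p = 0.0330). Both calls ended in DESeq2 (adjusted p = 0.0643 and 0.0529) and with length and GC offsets (adjusted p = 0.320 and 0.252). The decanal call held without decanal 1 and ended without any other library (adjusted p = 0.0590 to 0.223), and that of the AD mixture held without AD mixture 3 and ended without any other library (adjusted p = 0.0520 to 0.138). Olfr318 was lower with decanal, at 5.16, 3.63 and 3.85 CPM against 5.95, 5.24 and 6.92 CPM in the AD controls, a log2 difference of -0.52 with SE 0.17 (adjusted p = 0.0339) with no overlap. That call ended with length and GC offsets (adjusted p = 0.0914) and without decanal 2, decanal 3, AD control 1 or AD control 3 (adjusted p = 0.107, 0.103, 0.0746 and 0.140).

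In the Olfr376 to Olfr412 range 0 of 17 were called in the AD batch, by edgeR as described. The shares of all genes called in either direction were 0.00512% with acetophenone, 23.9% with decanal and 22.3% with the AD mixture. Higher calls were 2 of 17 with octanal, 0 with cis-3-hexenol and 3 with the OC mixture, against 14.4%, 5.56% and 11.5% of all genes, so the octanal count was below the background. The median log2 fold changes were -0.00 with acetophenone, -0.16 with decanal, -0.08 with the AD mixture, 0.28 with octanal, 0.34 with cis-3-hexenol and 0.53 with the OC mixture. Olfr389 had 10.2, 13.1 and 9.58 CPM with octanal, against 8.11, 4.82 and 4.03 CPM in the OC controls, a log2 difference of 0.94 with SE 0.26 (adjusted p = 0.0133). In the same comparison Olfr390 had 17.6, 13.3 and 11.9 CPM, against 12.6, 5.98 and 5.92 CPM in the OC controls, a log2 difference of 0.79 with SE 0.24 (adjusted p = 0.0229) with groups that overlapped. In both, OC control 1 stood above the other controls, and both calls ended with length and GC offsets (adjusted p = 0.0755 and 0.155). Without OC control 3 neither was called (adjusted p = 0.0562 and 0.0925). Olfr389 also lost its call without octanal 2 (adjusted p = 0.0611), and Olfr390 without octanal 1 (adjusted p = 0.110) or OC control 2 (adjusted p = 0.0845).

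With the OC mixture Olfr380 had 5.21, 3.57 and 4.38 CPM, against 2.45, 3.18 and 2.32 CPM in the OC controls, with no overlap and 0.73 on the log2 scale (SE 0.20, adjusted p = 0.0153). Its call ended without OC mixture 1 (adjusted p = 0.0807) or OC control 3 (adjusted p = 0.0506) and was kept with length and GC offsets. Olfr392, at 0.46 (adjusted p = 0.0378), and Olfr410, at 0.92 (adjusted p = 0.0458), overlapped their controls, and neither call was kept with length and GC offsets (adjusted p = 0.630 and 0.0822). Olfr392 was called without OC mixture 2 or OC control 1 and not without any other library (adjusted p = 0.0818 to 0.124), and Olfr410 without OC mixture 3 and not without any other (adjusted p = 0.0510 to 0.151).

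Olfr411 had the second smallest p of the 50 with acetophenone and was not called. It stood at 1.82, 1.13 and 0.974 CPM with acetophenone, against 2.92, 2.28 and 3.54 CPM in the AD controls, a log2 difference of -1.15 with SE 0.31 (adjusted p = 0.453 in edgeR). Its groups did not overlap, with 23 to 45 counts per exposed library. With no filter on low counts its adjusted p was 0.00396.

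**Figure D5:**
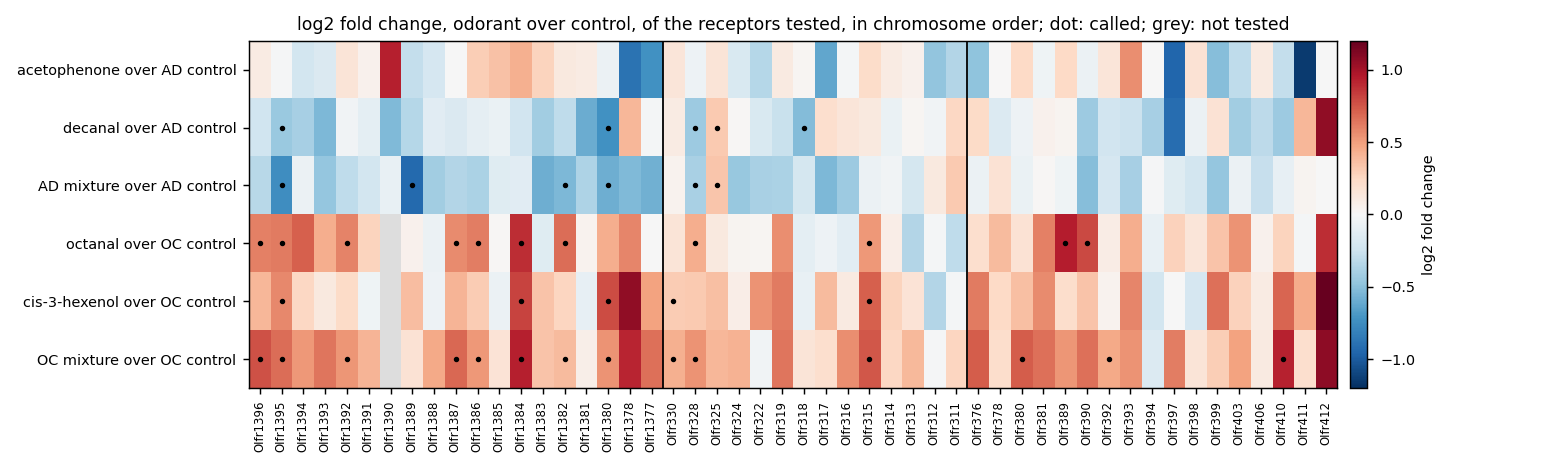
Log2 fold change of odorant over control for the receptors tested, in the order of the genes along chromosome 11, with a black dot where a receptor was called and grey where it was not tested. Vertical lines part the 3 number ranges, and the 4 receptors called lower in the AD batch and higher in the OC batch are Olfr1395, Olfr1380, Olfr328 and Olfr1382.

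Genes that carry the receptor signal were called in both batches as well. Of 18 transduction genes 3 rose and 8 fell with decanal, against 11.4% and 12.5% of all genes. With the AD mixture 2 rose and 10 fell, against 10.6% and 11.6%, with a median log2 fold change of -0.30. On the log2 scale Pde1c, a phosphodiesterase of the cilia, fell by 0.63 (SE 0.07) and Adcy3 by 0.51 (SE 0.08) with the AD mixture, while Gng13, a G protein subunit, rose by 0.61 (SE 0.09). In the OC batch, where 17 were tested, 8 rose and 3 fell with octanal, against 14.4% and 15.0% of all genes. With cis-3-hexenol 7 rose and 1 fell, against 5.56% and 6.65%. With the OC mixture 7 rose and 2 fell, against 11.5% and 12.7%. With octanal Ano2, a chloride channel, rose by 0.73 (SE 0.10), Pde1c by 0.68 (SE 0.08) and Ric8b, an exchange factor for the G protein, by 0.61 (SE 0.10). With acetophenone 0 of 18 were called.

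Of 19 genes of receptor choice and trafficking, 4 rose and 7 fell with decanal, 2 rose and 4 fell with the AD mixture, 4 rose and 4 fell with octanal, 1 rose and 4 fell with cis-3-hexenol and 5 rose and 4 fell with the OC mixture. Of all genes 11.4% rose and 12.5% fell with decanal, 10.6% and 11.6% with the AD mixture, 14.4% and 15.0% with octanal, 5.56% and 6.65% with cis-3-hexenol and 11.5% and 12.7% with the OC mixture, so such counts as 2 of 19 with the AD mixture are near the background. Atf5, a factor of the stress response that stabilises receptor choice, rose by 0.53 on the log2 scale (SE 0.09) with decanal and fell by 1.14 (SE 0.09) with octanal. Kdm1a, a histone demethylase needed to start receptor expression, fell by 0.29 (SE 0.05) with decanal and rose by 0.37 (SE 0.07) with octanal. Of 7 genes whose transcripts are known to increase with the activity of a sensory neuron, 3 rose with decanal, 4 with the AD mixture, 5 with octanal, 5 with cis-3-hexenol and 6 with the OC mixture, and 0 fell. On the same scale Lrrc3b rose by 0.64 (SE 0.10) with the AD mixture, 1.27 (SE 0.14) with octanal and 1.55 (SE 0.14) with the OC mixture.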

How the data were processed

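The deposited tables, one per batch of 12 libraries, hold expected counts per Ensembl gene made by the authors and not scaled between libraries. The submitters' processing notes name STAR 2.7.10b, Salmon 1.10.1, R 4.4.2 and GRCm39 without their roles, and the annotation release and whether strand was used are not given in the sources used here. Per the labels, RNA was purified from an aliquot of epithelium homogenate and sequenced with a stranded mRNA kit. Rounding to whole counts, by at most 0.5, touched 12.8% of AD and 12.6% of OC values. GENCODE M21, made for the older build GRCm38, gave symbols, lengths and coding sequences and matched 52081 of 57010 IDs. Unmatched IDs held 0.303% of the AD and 0.310% of the OC counts. No coordinates are given, since the files use another build. Of 50 receptors with a RefSeq upstream window, 36 start at the start codon, so no promoter is shown. Some sequences are not reported here.

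Each batch was fitted with edgeR 4.0.16 in R 4.3.3 (filterByExpr, TMM scaling, quasi-likelihood F-test, 4 groups, no block), with Benjamini-Hochberg adjustment over 19525 AD or 19175 OC genes and a threshold of 0.05. All adjusted p-values are from this fit unless another is named. CPM are TMM-scaled within a table, and SE is the log2 fold change over the square root of F. Alternatives were DESeq2 1.42.0 (test and size factors), no filter, 1 CPM in 3 libraries, the 6 libraries compared, unrounded counts, a block for the replicate number, offsets for length and GC content fitted by loess in each library (span 0.4), with and without that block, and leaving out each library. The fit was tested on simulated counts. The labels call replicates biological, without naming animals as separate or pooled.

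Named receptors are, per comparison, up to 3 called in each direction by p (with no call, the 2 smallest p), the 2 highest per range, and those called in 2 or more comparisons. Olfr318, Olfr331, Olfr380, Olfr384, Olfr389 and Olfr410 lie outside that rule and were named after their values were seen. Receptors named only for their sequence or for not being tested also lie outside it. Members and lists were chosen with earlier results of these data known.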

Additional observations from a re-analysis of the deposited data

How the results depend on the processing

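Of 43 receptor values checked, 0 changed direction in any alternative, and 23 kept their side of the threshold in all 9 alternatives that keep every library. Length and GC offsets lowered the count of called receptors to 3 with decanal, to 7 with octanal and to 5 with the OC mixture, and with the replicate block added these were 3, 7 and 4. With no filter on low counts 2 receptors were called with acetophenone and 10 with cis-3-hexenol. In fits that leave out a library the counts ran from 0 to 0 with acetophenone, 2 to 4 with decanal, 2 to 8 with the AD mixture, 7 to 10 with octanal, 3 to 9 with cis-3-hexenol and 10 to 16 with the OC mixture. The shares of all genes called under these alternatives are not given. A change among the receptors can thus not be told from a change in the calls of all genes. The cause was not tested.

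The replicate numbers are shared by groups, and the labels do not say whether they pair the libraries. Correlations between same-numbered libraries had a median of 0.03 over 18 AD pairs and -0.06 over 18 OC pairs. Over 36 pairs of different numbers per batch the medians were -0.01 and 0.03. Of 12 libraries per batch, 5 AD and 0 OC libraries correlated best with their own number. With 3 libraries per group these values cannot exclude pairing. With the replicate block alone, 0 receptors were called with acetophenone, 5 with decanal, 7 with the AD mixture, 11 with octanal, 4 with cis-3-hexenol and 16 with the OC mixture. Receptors with few counts per library, and copies over 90% identical, limit what these counts can show.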
